A study of Mus musculus with 24 samples.

Results

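Flavin-dependent oxidases are enzymes that use a bound flavin to take electrons from a substrate and hand them to molecular oxygen. The 9 genes described here are *Lao1*, *Dao*, *Xdh*, *Aox1*, *Fmo1*, *Fmo2*, *Fmo5*, *Maoa* and *Maob*, measured by 16 probes, out of 23787 genes named on the microarray and 56605 probes. A probe was a member when its sequence identifier belonged to a transcript of one of these genes. The genes were selected on results of these same microarrays, namely the differences between corticosterone-treated and control animals. Those differences are therefore given as a description, with standard errors and without p values, and the counts of probes past the threshold stand beside the share of all probes as a description too; nothing is supported by them.

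The samples were hippocampi of male Swiss-Webster mice, for which the methods of the study give an age of 12 weeks. Mice of about this age were moved to single cages for some weeks of habituation before the treatment. They were therefore older when the samples were taken. Corticosterone-treated animals drank corticosterone at 100 µg/ml with 0.45% hydroxypropyl-β-cyclodextrin during the 12 h of the dark phase, and control animals drank the cyclodextrin alone. Animals were sacrificed in the resting period, which is the light phase, during the first hour, the fifth hour or the ninth hour, with 8 control and 8 corticosterone-treated animals at each of these hours. Each of 24 arrays on 3 slides held RNA of a control animal labelled with Cy3 and RNA of a corticosterone-treated animal labelled with Cy5, so that 48 animals were measured without pooling. Control animals were brothers of treated animals and litters were shared within groups, per the methods of the study, but which animals shared a litter is not given, so that litter did not enter any test. The dyes were exchanged on no array, and in each comparison of treated with control animals the dye and the treatment cannot be told apart. In the order of the hours, 2, 2 and 4 arrays were on slide 1 and 3, 3 and 2 on each of slides 2 and 3. The share of spots well above background, by the test of the scanner software, was 57.9 to 64.2% (median 60.7%) in the control channel and 61 to 70.4% (median 66.4%) in the corticosterone channel. The number of arrays limits the precision of all values. In bulk tissue, fewer cells of a type and less RNA per cell cannot be told apart.

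As background, the reactions of these enzymes release hydrogen peroxide in most cases, and aldehydes, ammonia or uric acid according to the substrate. In the brain, the monoamine oxidases of the outer mitochondrial membrane break down serotonin, noradrenaline and dopamine, and D-amino acid oxidase breaks down D-serine, which acts at NMDA receptors. The name of the group covers its members loosely: xanthine dehydrogenase and aldehyde oxidase carry a molybdenum cofactor beside the flavin, and the flavin-containing monooxygenases put an oxygen atom into their substrate, so that they are monooxygenases rather than oxidases.

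Signal intensity below is the normalized intensity of a probe without offset, in arbitrary units, and it is compared only between animals at the same probe. Where a gene had several probes, the brightest is described in full. A log2 fold change is corticosterone-treated over control unless another order is named.

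*Lao1* encodes an L-amino acid oxidase, which turns L-amino acids into keto acids, ammonia and hydrogen peroxide. During the first hour, its probe A_55_P2101021 had a signal intensity of 29.4 at the lowest, 32.6 at the median and 40.2 at the highest in 8 control animals, and of 61.03, 207 and 347 in 8 corticosterone-treated animals. During the fifth hour the same 3 values were 20.4, 29.8 and 50.96 in control and 65.4, 179 and 405 in treated animals. During the ninth hour they were 12.3, 24.2 and 42.0 in control and 25.99, 59.3 and 125 in treated animals. The treated animals lay above all control animals during the first and the fifth hour, whereas the groups overlapped during the ninth hour, when 5 of 8 treated animals were above the highest control animal. The share of all probes whose groups lie apart is not given here, so that nothing is read from the separation. Corticosterone-treated over control, the difference is 2.41, 2.55 and 1.23 on the log2 scale in the order of the hours (SE 0.259, n = 8 arrays each), and the treated animal was the higher on 8 of 8 arrays at every hour. The control signal was near background: the spot was well above it in 1, 1 and 0 of 8 control animals and in 8, 8 and 6 of 8 treated animals at these hours. The ninth hour therefore has only an approximate bound, at least 2.06-fold higher in treated animals after Aquantile normalization, which is open to dye bias. Treated spots that were not well above background entered this bound at their measured value. The paper reports *Lao1* as higher in treated animals by PCR, a measure without the array dyes, at every tested hour. The fitted differences are no bounds and leaned on the handling of background, from 1.37 to 3.16, from 1.41 to 3.74 and from 0.51 to 2.01 on the log2 scale, in the same order, over 16 alternative settings, with the lowest at an offset of 50 and the highest with the processed signals of the scanner software. Ordered by mean log2 intensity, the treated animals of the first and the fifth hour stood together at the top and apart from those of the ninth hour by 1.68, which is more than the SD of either group. Between the remaining neighbours in the order, namely treated animals of the ninth hour and control animals of the first, the fifth and the ninth hour, the gaps were within the larger SD.

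**Figure D1:**
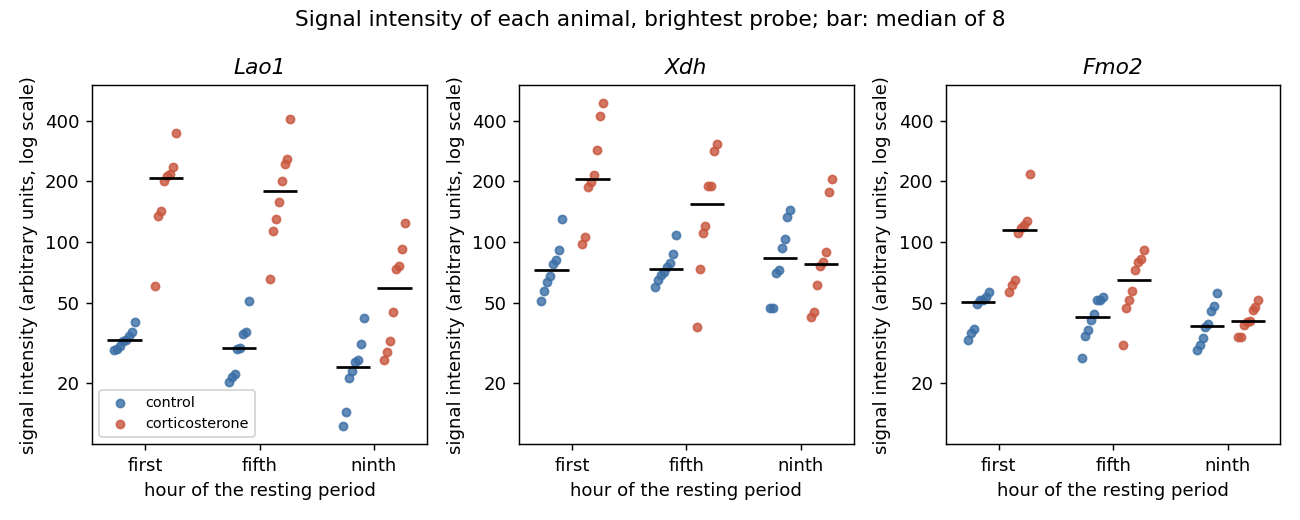
Signal intensity (arbitrary units, log axis) of each animal at the brightest probe of *Lao1*, *Xdh* and *Fmo2*, by hour of the resting period, with blue points for control and red points for corticosterone-treated animals and a bar at the median of 8 animals. Treated animals lie above all control animals for *Lao1* during the first and the fifth hour and for *Fmo2* during the first hour, and the groups overlap elsewhere. The share of all probes with such a separation is not given, and the genes were chosen by this comparison.

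*Dao*, the D-amino acid oxidase of peroxisomes, was dim. Over the 48 animals, its brighter probe A_55_P2108933 gave intensities from 19.03 to 37.34 and was well above background in 0 control animals at any hour and in 4, 2 and 1 of 8 treated animals. Treated and control animals overlapped at each hour. The second probe, A_52_P452747, was dimmer still and was well above background in 3 of the 24 treated and 0 of the 24 control animals. The 6 groups of *Dao* differed from their neighbours in the order by less than the larger SD.

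*Xdh* encodes xanthine dehydrogenase, also known in its oxidase form, which carries purine degradation through xanthine to uric acid. At probe A_51_P312121, control animals had a lowest, median and highest signal intensity of 51.3, 72.8 and 131 during the first hour, and treated animals of 98.2, 207 and 486. The corresponding values were 60.2, 73.5 and 108 against 38.02, 155 and 306 during the fifth hour. They were 47.2, 83.4 and 144 against 42.5, 77.9 and 206 during the ninth hour. The groups overlapped at each hour, with 6, 6 and 2 of 8 treated animals above the highest control animal, and all 48 animals were well above background. The log2 fold change was 1.54, 0.84 and 0.01 at the 3 hours in order (SE 0.287), and the treated animal was the higher on 8, 7 and 2 of 8 arrays. The slides differed during the fifth hour, with mean log2 ratios of 2.00, 0.03 and 0.89 on slides 1, 2 and 3, and the log2 fold change of that hour was 0.46 without slide 1 and 1.34 without slide 2. In the order of the group means, treated animals of the first hour came before those of the fifth, and these before those of the ninth, but no neighbours were apart by more than the larger SD. The other *Xdh* probe, A_55_P2739092, had a mean intensity of 33.3 and was well above background in 3, 2 and 0 of 8 control and 6, 6 and 4 of 8 treated animals, too near to background for a fold change to be read.

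*Aox1*, an aldehyde oxidase that acts on aldehydes and nitrogen-containing rings, is the other molybdenum enzyme of the group. Its probe A_51_P333111 lay between 253.5 and 540.4 over the animals and was well above background in all of them. The log2 fold changes of 0.06, -0.07 and -0.04 (SE 0.105) were each smaller than the SE, and the treated animal was the higher on 3, 2 and 3 of 8 arrays. Treated and control groups overlapped at every hour, and no neighbours among the 6 groups were apart by more than the larger SD.

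The flavin-containing monooxygenases oxidize nitrogen and sulfur atoms of amines, sulfides and many foreign compounds. For *Fmo2*, probe A_51_P301998 had a lowest, median and highest signal intensity of 32.9, 50.5 and 56.5 in control and of 56.8, 114 and 217.5 in treated animals during the first hour. During the fifth hour it had 26.7, 42.6 and 53.5 in control and 31.03, 65.1 and 91.01 in treated animals. The ninth hour gave 29.3, 38.6 and 55.9 in control and 34.0, 40.6 and 51.5 in treated animals. All treated animals of the first hour were above all control animals, 5 of 8 were above the highest control animal during the fifth hour, and none was during the ninth hour. Nothing is read from this separation either, as the share of all probes with it is not given. The log2 fold changes were 1.15, 0.56 and 0.08 (SE 0.177), the treated animals being the higher on 8, 8 and 5 of 8 arrays, and the spot was well above background in 6, 6 and 4 control and 8, 8 and 7 treated animals of 8. Treated animals of the first hour stood above the next group, the treated animals of the fifth hour, by 0.71 in mean log2 intensity, which exceeds the larger SD, and the other neighbours in the order did not. The dimmer *Fmo2* probe A_52_P273891 was well above background in 0 control animals and in 6, 3 and 1 of 8 treated animals. Its control signals were raised to the lowest level well above background on each array, after Aquantile normalization. Treated animals were 1.27-fold, 1.3-fold and 1.08-fold higher than this at the 3 hours. Treated spots near background entered at their measured value, so that these values are no strict bounds. They do not rank the hours and are open to dye bias.

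*Fmo1* stayed within narrow limits. Its probes A_55_P2783152 and A_52_P508991 were well above background in all 48 animals and had log2 fold changes from -0.07 to 0.05 over the 3 hours (SE 0.0951 and 0.0781), while the third probe, A_55_P2153783, was well above background in no animal and bears no fold change. *Fmo5*, which also oxidizes ketones to esters, had log2 fold changes of 0.16, 0.10 and 0.07 (SE 0.0640) at its brighter probe A_55_P1959595, positive on 5, 6 and 6 of 8 arrays. The dim *Fmo5* probe A_52_P1147453 was well above background in 1 of 48 animals and bears no fold change either. For *Fmo1* and *Fmo5*, treated and control animals overlapped at each hour and no neighbouring groups were apart by more than the larger SD.

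*Maoa* and *Maob* encode the monoamine oxidases A and B, of which A is known to act mainly on serotonin and noradrenaline and B mainly on phenylethylamine. The *Maoa* probe A_66_P119238 had a lowest, median and highest intensity of 455.6, 621.5 and 675.5 in control and 472, 492 and 645 in treated animals of the first hour. On the log2 scale its treated animals differed from control animals by -0.17, -0.17 and -0.03 at the 3 hours (SE 0.0723), being higher on 2, 2 and 4 of 8 arrays and all groups overlapping. Treated animals of the ninth hour were above those of the fifth by 0.16 in mean log2 intensity, more than the larger SD, and no other neighbours in the order of the 6 groups were apart by more than theirs. The *Maob* probe A_51_P302566 lay between 1050.0 and 1738 over the animals, with log2 fold changes of 0.09, 0.02 and 0.07 (SE 0.0684). The second *Maob* probe, A_66_P124140, was higher in the treated animal on 8, 6 and 4 of 8 arrays, with log2 fold changes of 0.26, 0.13 and 0.03 (SE 0.0835). Control and treated groups of both *Maob* probes overlapped at each hour.

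**Figure D2:**
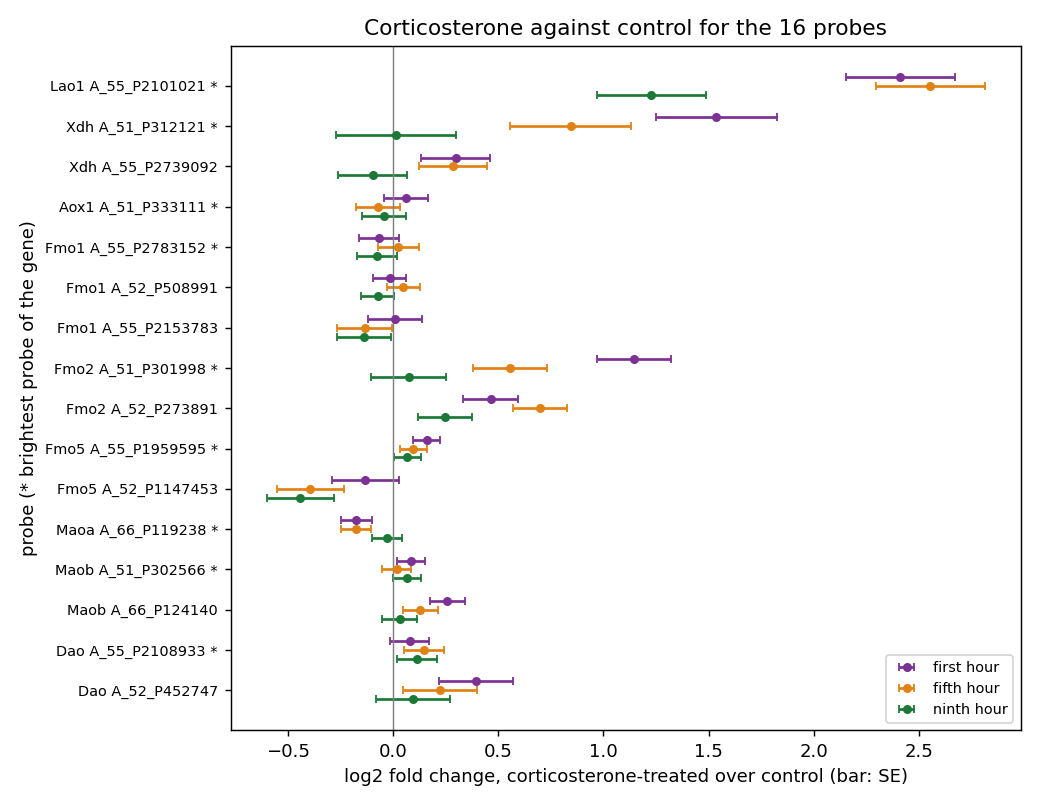
Log2 fold change, corticosterone-treated over control, of the 16 probes of the 9 genes during the first (purple), the fifth (orange) and the ninth (green) hour of the resting period; points are fitted values and bars their SE. The *Lao1* probe, the brighter *Xdh* probe and both *Fmo2* probes lie farthest to the right during the first and the fifth hour. During the ninth hour the brighter probes of *Xdh* and *Fmo2* lie near 0. The probes of *Aox1* and *Fmo1* lie around 0, and values of probes not well above background are fitted to background.

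Over the group, 5 of 16 probes were past an adjusted p under 0.05 in limma during the first hour, when 17.5% of all probes were: those of *Lao1*, *Xdh* (A_51_P312121) and *Fmo2* (both) and *Maob* (A_66_P124140), all higher in treated animals. During the fifth hour 4 of 16 probes were past it, against 18.1% of all probes, namely the first 4 of the same probes; with slide as a block there were 3, without the brighter *Fmo2* probe. In that hour the *Xdh* probe was no longer past it without slide 1, without slide 3 and with processed signals, and the brighter *Fmo2* probe without slide 1, without slide 3 and with no background correction. During the ninth hour 2 of 16 were past it, against 13.9% of all probes: *Lao1*, higher in treated animals, and the dim *Fmo5* probe, which was well above background in no animal of that hour and so has no direction. The *Lao1* probe was no longer past it in that hour with no background correction, without slide 1 and without slide 3. Since these comparisons chose the genes, nothing is read from the counts. The counts of the 3 hours in order became 3, 2 and 0 without slide 1, 4, 5 and 1 without slide 2, and 4, 2 and 0 without slide 3. The count of 5 without slide 2 included *Maoa*, which was lower in treated animals. *Maoa* was also past the threshold, in the first and the fifth hour, with processed signals and with probes of mean intensity 50 or more. The median log2 fold change of the brightest probes of the 9 genes was 0.09, 0.10 and 0.07 at the 3 hours, and that of all probes was 0.00 to 2 decimals.

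The change of the corticosterone effect between hours rests on the same ratios and is given in the same way; a dye difference that is the same on all arrays drops out of it. From the first to the ninth hour, the log2 fold change moved by -1.18 for *Lao1* (SE 0.366), by -1.52 for *Xdh* (SE 0.405) and by -1.07 for *Fmo2* (SE 0.250), and it moved between -0.10 and 0.14 for the brightest probes of the other 6 genes. In this comparison 2 of 16 probes, those of *Lao1* and *Fmo2*, were past an adjusted p under 0.05, against 0.829% of all probes, and without slides 1, 2 and 3 the counts were 1 (*Xdh*), 1 (*Lao1*) and 0. With slide as a block the count was 3, *Xdh* included. From the first to the fifth hour, limma put 0 of 16 probes past this threshold, 1 at an unadjusted p under 0.05, against 0.0389% of all probes past the adjusted threshold. The change was 0.14 for *Lao1* (SE 0.366), -0.69 for *Xdh* (SE 0.405) and -0.59 for *Fmo2* (SE 0.250). From the fifth to the ninth hour, limma again put 0 of 16 probes past it, 3 at an unadjusted p under 0.05, against 0.0813% of all probes past the adjusted threshold, with changes of -1.32 for *Lao1*, -0.83 for *Xdh* and -0.48 for *Fmo2*, and 1 probe (*Lao1*) was past it without slide 2. As the ninth hour of *Lao1* has only a bound, the size of its change to that hour is not measured.

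**Figure D3:**
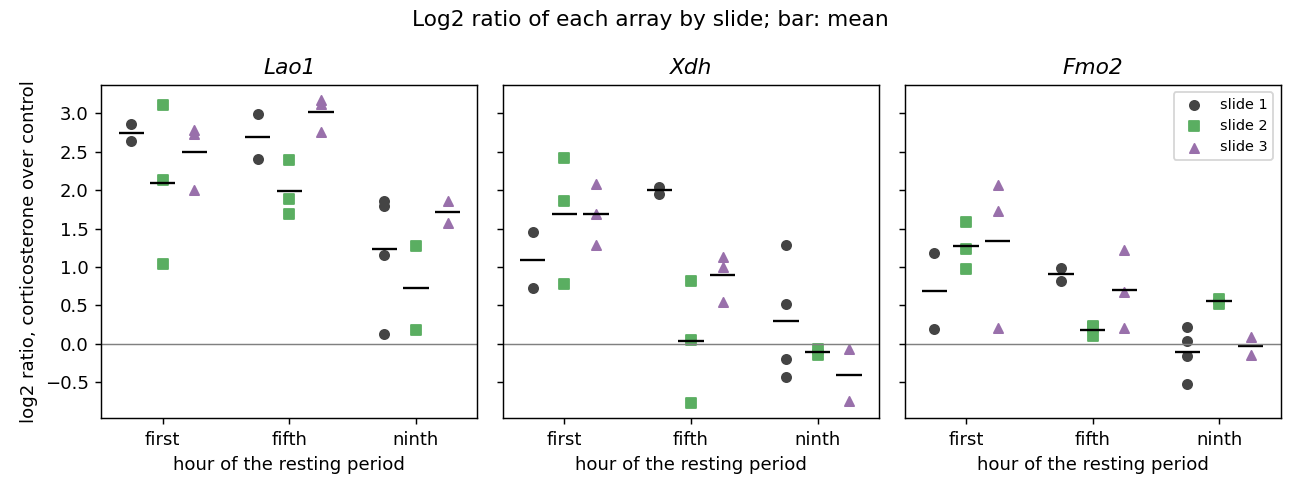
Log2 ratio, corticosterone-treated over control animal, of each array at the brightest probe of *Lao1*, *Xdh* and *Fmo2*, by hour and by slide (circles, squares and triangles for slides 1, 2 and 3; bars are slide means). The ratios of *Lao1* are above 0 on all 24 arrays, and the *Xdh* ratios of the fifth hour are higher on slide 1 than on slide 2.

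Within slides, the mean log2 ratio of *Lao1* was 2.75, 2.09 and 2.50 on slides 1, 2 and 3 during the first hour, 2.70, 1.99 and 3.02 during the fifth and 1.24, 0.72 and 1.72 during the ninth. With control signals of *Lao1* near background, these ratios do not rank the hours. *Xdh* had 1.09, 1.69 and 1.68 during the first hour, 2.00, 0.03 and 0.89 in the fifth and 0.29, -0.11 and -0.41 in the ninth, so that each slide was lower in the ninth than in the first hour, while slide 1 was highest in the fifth. *Fmo2* began at 0.69, 1.27 and 1.33, had 0.90, 0.18 and 0.70 in the fifth hour and reached -0.11, 0.55 and -0.03 in the ninth. On slide 1 the *Fmo2* ratio was thus higher in the fifth than in the first hour, and on slide 2 it was higher in the ninth than in the fifth.

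The control animals alone address whether these genes follow the hours of the resting period, and this comparison was not used to choose them. It compares Cy3 signals of animals on separate arrays, so that dyes do not enter it, but slides do. In limma 0 of 16 probes were past an adjusted p under 0.05 between the first and the fifth hour, 1 at an unadjusted p under 0.05, against 0.0053% of all probes past the adjusted threshold. Between the first and the ninth hour there were 0 of 16, 1 at an unadjusted p under 0.05, against 0.516% of all probes. Between the fifth and the ninth hour there were 0 of 16, 0 at an unadjusted p under 0.05, against 0.0318% of all probes. The smallest adjusted p of a member in the 3 comparisons was 0.64, 0.31 and 0.82. The value of 0.31 belonged to *Maoa*, which was higher in the ninth than in the first hour by 0.21 on the log2 scale (SE 0.0847, n = 8 animals each, limma), by 0.22 with slide as a block (adjusted p = 0.23), and by 0.36, 0.14 and 0.24 within slides 1, 2 and 3. *Lao1* had a log2 difference of -0.53 between the same hours (SE 0.303, adjusted p = 0.72 in limma, and 0.75 with slide as a block), and its control signals are near background. A difference between control animals of different hours was therefore not detected for any of the 9 genes with 8 animals per hour, which does not show that none exists.

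Promoters of 6 of the 9 genes were found in RefSeq on build GRCm38.p6, with 9 windows of 300 bases, from 250 bases before to 50 bases after a start of transcription; windows of *Xdh*, *Fmo1* and *Maob* were not in the sequences at hand. The hexamer AGAACA, an arm of the binding sequence known for the glucocorticoid receptor, was looked for on both strands, where it reads TGTTCT on the other strand. It was in 1 window of *Fmo2* and 1 window of *Dao* and in no window of *Lao1*, *Aox1*, *Fmo5* and *Maoa*. Of 32851 promoter windows of the same length, 6233 hold it, and the full palindrome of both arms with 3 bases between them is in 3 windows and in no window of these genes. Shown are the windows of *Lao1*, at chr4:118961717-118962016 on the + strand, and *Fmo2*, at chr1:162898444-162898743 on the - strand, since the signals of both were high in treated animals; capitals mark the hexamer, which begins at base 126 of the *Fmo2* window and 125 bases before the start of transcription.
Lao1: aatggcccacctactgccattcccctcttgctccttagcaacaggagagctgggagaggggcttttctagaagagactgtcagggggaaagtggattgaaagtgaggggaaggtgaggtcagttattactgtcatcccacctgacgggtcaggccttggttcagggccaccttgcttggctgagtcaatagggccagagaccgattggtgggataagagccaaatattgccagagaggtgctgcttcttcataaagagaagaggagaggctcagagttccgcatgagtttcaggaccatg
Fmo2: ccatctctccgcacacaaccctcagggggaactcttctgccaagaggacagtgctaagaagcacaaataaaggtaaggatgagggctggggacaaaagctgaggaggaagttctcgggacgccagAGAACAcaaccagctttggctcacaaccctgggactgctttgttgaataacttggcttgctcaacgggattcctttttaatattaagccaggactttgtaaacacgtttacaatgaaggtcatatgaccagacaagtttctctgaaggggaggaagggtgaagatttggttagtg
A match of letters is a description and not a site, and no match says only that these letters are not in the window: the dim *Dao* holds the hexamer and *Lao1* does not.

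In the same reference, *Fmo1* lies between *Fmo4* and *Fmo2*, and *Fmo2* between *Fmo1* and *Fmo6*, while *Maoa* and *Maob* are next to each other. Whether *Fmo4* and *Fmo6* differ with treatment cannot be read from these arrays, since *Fmo6* was well above background in 0 and *Fmo4* in 1 of 48 animals. Beside *Lao1* lies *Slc2a1*, the glucose transporter of the blood-brain barrier, which was higher in treated animals by 0.92 during the first hour (SE 0.0944, adjusted p = 2.2e-10, limma) and by 0.32 during the fifth (adjusted p = 0.011), with -0.08 during the ninth (adjusted p = 0.64). *Olfr1328*, on the other side of *Lao1*, had adjusted p of 0.44, 0.24 and 0.97. *Ehd3*, next to *Xdh*, was higher by 0.34 during the first hour (SE 0.0986, adjusted p = 0.0098), with 0.25 (adjusted p = 0.079) and 0.13 (adjusted p = 0.36) later, and *Srd5a2*, on the other side of *Xdh*, had adjusted p of 0.95, 0.34 and 0.86. *Svop*, beside *Dao*, was lower at -0.14 during the first and the fifth hour (SE 0.0473, adjusted p = 0.021 and 0.020), with -0.07 in the ninth (adjusted p = 0.29), and *Ndp*, beside *Maob*, was lower at -0.21 during the first hour (SE 0.0698, adjusted p = 0.022), with -0.08 and 0.12 later (adjusted p = 0.41 and 0.21). Of all 14 neighbouring genes outside the group, 4, 2 and 0 were past the threshold at the 3 hours. The shares of all probes past it were 17.5, 18.1 and 13.9%. *Aox3*, *Sgo2a*, *Ssh1*, *Chd1l*, *Prkab2* and *Cypt1* were among the 10 neighbouring genes that were past it at no hour.

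The named genes nearest to *Lao1* in pattern, by the root mean square difference of the 6 group means of log2 intensity over 48 animals and among 22460 probes, each centred on its own mean, were *Pla2g3* (0.239), *Sult1a1* (0.331) and *Plin4* (0.444). Nearest to *Xdh* were *Map3k6* (0.121), *Tekt4* (0.124) and *Mfsd2a* (0.124). *Fmo2* had *Tekt4* (0.0465), *Gm11627* (0.0880) and *Tsc22d3* (0.113, probe A_55_P2741276) as the nearest genes. *Tekt4*, with log2 fold changes of 1.21, 0.62 and -0.05, was near to both *Xdh* and *Fmo2*. These genes were found by their likeness, and no test belongs to it.

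**Figure D4:**
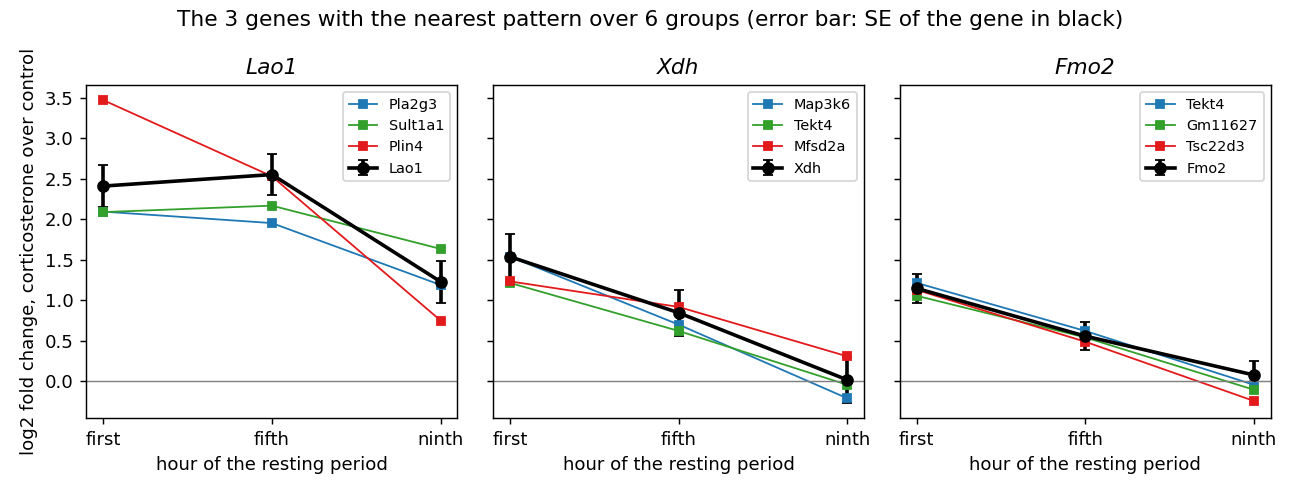
Log2 fold change, corticosterone-treated over control, of *Lao1*, *Xdh* and *Fmo2* (black, bars are SE) and of the 3 genes nearest to each in the means of the 6 groups (colours), by hour of the resting period. *Xdh*, *Fmo2* and the genes near to them have lower values at each later hour.

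Among the treated animals of an hour, 9 relations were computed between the log2 intensities of *Lao1*, *Xdh* and *Fmo2*, the genes whose brightest probe had a log2 fold change beyond 0.58 at some hour, and none had an adjusted p under 0.05 (exact permutation tests, two-sided, n = 8 animals). By Pearson's r the closest was that of *Xdh* with *Fmo2* during the fifth hour, with r = 0.85 (exact permutation p = 0.00759, adjusted p = 0.0683) and Spearman's rho = 0.76 (exact permutation p = 0.0368, adjusted p = 0.165). By Spearman's rho the closest was that of *Lao1* with *Xdh* during the first hour, at 0.79 (exact permutation p = 0.0279, adjusted p = 0.165), with Pearson's r = 0.48 (exact permutation p = 0.222, adjusted p = 0.333). The relation of *Xdh* with *Fmo2* rests in part on the 2 animals farthest from the median of *Xdh*, without which r was 0.54. For this pair r was 0.73 during the first hour (exact permutation p = 0.0438, adjusted p = 0.0985), with rho = 0.48 (exact permutation p = 0.243, adjusted p = 0.401), and it had the other sign during the ninth, at -0.50 (exact permutation p = 0.21, adjusted p = 0.333), with rho = -0.45 (exact permutation p = 0.267, adjusted p = 0.401). The slides held 2 to 4 treated animals of an hour, too few for values within them, and the permutations did not keep to slides. During the fifth hour the mean log2 ratios of *Xdh* and *Fmo2* were both highest on slide 1 and lowest on slide 2. The part of the slides in their relation was not tested. These relations were added after the values of the genes had been seen. The genes were taken by their difference between treated and control animals, so that nothing is read from the relations.

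Of 42 other flavin oxidases and monooxygenases, 41 had a probe, and 10 of these differed between treated and control animals during the first hour (4 higher, 6 lower), 8 during the fifth (3 higher, 5 lower) and 6 during the ninth (4 higher, 2 lower) at an adjusted p under 0.05 in limma, beside 17.5, 18.1 and 13.9% of all probes. Of these genes 2, 1 and 1 were well above background in no animal, as were 9 of the 41 in all. The median log2 fold change of the list was -0.02, 0.02 and 0.01. *Prodh*, the proline dehydrogenase of mitochondria, was higher by 0.70, 0.58 and 0.32 (SE 0.0586, adjusted p = 2.4e-13, 1.1e-10 and 8e-05), on 8, 8 and 7 of 8 arrays. *Smox*, the spermine oxidase, was higher by 0.57, 0.50 and 0.17 (SE 0.0605, adjusted p = 2.5e-10, 1.1e-08 and 0.037). *Pipox*, which oxidizes pipecolic acid and sarcosine, was lower during the first and the fifth hour, at -0.56 and -0.31 (SE 0.0742, adjusted p = 6.7e-07 and 0.0027), with 0.00 in the ninth hour (adjusted p = 0.94). The other secreted L-amino acid oxidase of the list, *Il4i1*, went the other way from *Lao1*, with -0.27, -0.37 and -0.14 (SE 0.0936, adjusted p = 0.037, 0.0037 and 0.29). The effect changed from the first to the ninth hour for *Pipox* (0.56, adjusted p = 0.0026), *Smox* (-0.40, adjusted p = 0.0028) and *Prodh* (-0.38, adjusted p = 0.0030), and in control animals *Acox3*, named after its values were seen, was higher by 0.22 in the ninth than in the first hour (adjusted p = 0.026). With 1 slide left out, the counts of the list were 6 to 8 in the first, 4 to 8 in the fifth and 2 to 4 in the ninth hour, 0 to 2 for the change of the effect and 0 for the control animals. *Smox* was no longer past the threshold during the ninth hour without any of the slides (adjusted p = 0.18, 0.13 and 0.085), *Pipox* during the fifth hour without slide 3 (adjusted p = 0.06), and *Il4i1* without slides 2 or 3 during the first (adjusted p = 0.38 and 0.13) and without slide 3 during the fifth hour (adjusted p = 0.16).

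Of 10 genes that supply flavin and molybdenum cofactors, 1, 2 and 1 differed at the 3 hours, beside 17.5, 18.1 and 13.9% of all probes, and the counts were 0, 0 to 2 and 0 with a slide left out (*Mocs1* of the first hour at an adjusted p of 0.082, 0.14 and 0.052 without slides 1, 2 and 3). *Mocs1*, which makes the first intermediate of the molybdenum cofactor, was higher by 0.18 during the first (SE 0.0605, adjusted p = 0.020) and by 0.24 during the fifth hour (adjusted p = 0.0030), with 0.13 in the ninth (adjusted p = 0.11), and the riboflavin transporter gene *Slc52a2* was lower at -0.18 during the fifth (adjusted p = 0.026). Of these calls of the fifth hour, *Mocs1* was lost without slide 3 (adjusted p = 0.058) and *Slc52a2* without slides 2 and 3 (adjusted p = 0.25 and 0.12). *Flad1*, the FAD synthase, was higher by 0.11 during the ninth hour (adjusted p = 0.045; 0.37, 0.12 and 0.098 without slides 1, 2 and 3). In control animals, *Slc52a3* was higher by 0.40 in the ninth than in the first hour (SE 0.0871, adjusted p = 0.014), and 0 genes of this list were past the threshold there without slide 1 or slide 3. Over the list, the median log2 fold change was 0.05, 0.03 and 0.04.

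Of 13 genes of purine degradation beside *Xdh*, 6 differed during the first hour (3 higher, 3 lower), 2 during the fifth (1 higher, 1 lower) and 3 during the ninth (1 higher, 2 lower), beside the same shares of all probes. *Pnp*, which makes hypoxanthine and guanine in the steps before *Xdh*, was lower at -0.33 during the first hour (SE 0.0863, adjusted p = 0.0033, on 8 of 8 arrays), with -0.07 and 0.06 later (adjusted p = 0.59 and 0.68). *Ampd2* was lower at -0.18, -0.16 and -0.11 (SE 0.0398, adjusted p = 0.00043, 0.0010 and 0.027). *Abcg2*, a transporter that exports urate, was lower during the ninth hour at -0.35 (SE 0.0633, adjusted p = 6.8e-05, on 8 of 8 arrays), and the change of its effect from the first hour was -0.44 (adjusted p = 0.0017). *Slc2a9*, another urate carrier, was higher by 0.26 during the first hour (adjusted p = 0.027), and *Nt5e* had 0.41 there (SE 0.186, adjusted p = 0.076). With *Xdh* counted, the list had 7, 3 and 3 genes past the threshold, and 3 to 6, 0 to 3 and 1 to 3 with a slide left out. *Pnp* had an adjusted p of 0.082 without slide 2, *Slc2a9* of 0.13 and 0.20 without slides 1 and 2, and *Ampd2* of 0.23, 0.053 and 0.15 in the ninth hour without slides 1, 2 and 3 and of 0.064 in the fifth without slide 1. The median log2 fold change of the list with *Xdh* was 0.10, 0.00 and -0.04.

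Among 16 genes that remove hydrogen peroxide and aldehydes, 4 differed during the first hour (2 higher, 2 lower), 4 during the fifth (1 higher, 3 lower) and 2 during the ninth (1 higher, 1 lower), again beside 17.5, 18.1 and 13.9% of all probes. *Cat*, the catalase that breaks down hydrogen peroxide in peroxisomes, was lower at -0.43, -0.30 and -0.23 (SE 0.0761, adjusted p = 2.6e-05, 0.0024 and 0.025), on 8, 7 and 6 of 8 arrays. *Gpx3*, a secreted glutathione peroxidase, was higher by 0.44 and 0.39 during the first and the fifth hour (SE 0.107, adjusted p = 0.0032 and 0.0066), with 0.23 in the ninth (adjusted p = 0.12). Without slide 3 the fifth hour of *Cat* had -0.19 (adjusted p = 0.17) and the first hour of *Gpx3* 0.39 (adjusted p = 0.12). The fifth hour of *Gpx3* had an adjusted p of 0.11 and 0.15 without slides 1 and 3, and the ninth hour of *Cat* of 0.30 and 0.078 without slides 1 and 2. Over the list, the median log2 fold change was -0.03, -0.04 and -0.02, and the counts of the list were 1 to 3, 1 to 4 and 0 to 1 with a slide left out.

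Of 11 genes of monoamine metabolism and transport, 2, 3 and 2 differed at the 3 hours, where 17.5, 18.1 and 13.9% of all probes did, and 1 to 2, 1 to 3 and 0 to 3 with a slide left out. Of the 11 genes, 2 were well above background in no animal. *Ddc*, which makes dopamine and serotonin from their precursors, was higher by 0.84 during the first and by 0.55 during the fifth hour (SE 0.114, adjusted p = 2.5e-07 and 4e-04, on 8 of 8 arrays each), with 0.05 in the ninth (adjusted p = 0.83), and between the first and last of these hours its effect changed by -0.79 (adjusted p = 0.0022; without slide 1 or slide 3, 0 genes of the list were past the threshold for this change). *Dbh*, which makes noradrenaline, was higher by 0.37 during the ninth hour (SE 0.0882, adjusted p = 0.0021; 0.12 without slide 1). The median log2 fold change of the list was 0.10, 0.08 and 0.04.

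Of 10 genes of D-amino acid and serine metabolism beside *Dao*, 3 differed at each hour, 1 higher and 2 lower, beside the same shares of all probes. The neutral amino acid carrier *Slc1a4* was higher by 0.46, 0.58 and 0.49 (SE 0.0698, adjusted p = 1.6e-06, 1.5e-08 and 1.3e-06), on 8 of 8 arrays at each hour. *Phgdh*, the entry enzyme of serine synthesis, was lower at -0.35, -0.49 and -0.35 (SE 0.0467, adjusted p = 4.2e-08, 1.4e-11 and 1.8e-07), also on 8 of 8 arrays. *Slc7a10*, a carrier of D-serine, was lower at -0.25, -0.26 and -0.21 (SE 0.0416, adjusted p = 4.2e-06, 2.4e-06 and 0.00012; 0.11 in the ninth hour without slide 1), and in control animals it was higher in the ninth than in the first hour by 0.23 (adjusted p = 0.0039; 0 genes of the list without slide 1 or slide 3). *Srr* and *Ddo*, which make D-serine and break down D-aspartate, had adjusted p from 0.082 to 0.66. Over the list, the median log2 fold change with *Dao* was 0.08, 0.05 and -0.08.

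For comparison, of 12 known targets of glucocorticoids 10 were higher in treated animals during the first hour and 5 during the fifth, while 6 were lower during the ninth, beside 17.5, 18.1 and 13.9% of all probes past the threshold in either direction. *Cdkn1a* had 2.06, 1.10 and 0.17 on the log2 scale (SE 0.176, adjusted p = 2.9e-12, 5e-05 and 0.65), and *Fkbp5* 0.60, 0.31 and -0.27 (SE 0.0815, adjusted p = 1.8e-07, 0.0043 and 0.014). The median log2 fold change of the list was 0.66, 0.16 and -0.19, and the effect dropped from the first to the ninth hour for 11 of the 12, beside 0.829% of all probes. Without slide 1 the list had 2 lower genes in place of 6 during the ninth hour, and *Fkbp5* had an adjusted p of 0.13 and 0.18 during the fifth and ninth hour (0.097 during the ninth without slide 3). *Lao1*, unlike *Fkbp5*, was on the higher side in the ninth hour, and *Xdh* and *Fmo2* were near 0.

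Cell type markers were counted in the same fit, since a difference in the cells of a sample would move many genes. All 9 hippocampal neuron markers had a mean signal intensity of 50 or more, with 0, 3 and 2 higher in treated animals at the 3 hours. Of 10 endothelial markers 7 (3 higher, 4 lower), 6 (3 higher, 3 lower) and 3 (1 higher, 2 lower) differed at these hours, when 17.5, 18.1 and 13.9% of all probes did. Of 9 astrocyte markers 4 (3 higher, 1 lower), 6 (3 higher, 3 lower) and 3 (1 higher, 2 lower) differed. The corresponding counts were 2, 1 and 0 of 10 for choroid plexus, where *Kcne2* was well above background in no animal, 0, 2 and 0 of 10 for meninges and fibroblasts, 1, 1 and 1 of 8 for pericytes and smooth muscle, 4, 4 and 5 of 7 for oligodendrocytes and 3, 3 and 1 of 7 for microglia. Without slide 1 the ninth hour had 1 oligodendrocyte, 1 endothelial and 0 neuron markers past the threshold and the fifth hour 2 endothelial markers, and without slide 2 the first hour had 0 microglia, 0 choroid plexus and 0 pericyte markers.

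The summed intensity of the endothelial markers, of which the probe of *Ly6c1* gave the largest part (a sum of intensities is no measure of abundance and is compared only with itself), was 17940 to 21610 in control and 16950 to 18380 in treated animals of the first hour, a log2 ratio of the means of -0.15, and -0.16 and -0.13 later. Without *Ly6c1* the log2 ratios were -0.38, -0.26 and -0.12, and the groups of the first hour did not overlap (12870 to 15140 in control, 9654 to 11800 in treated animals). The astrocyte sum, led by *S100b*, was 57320 to 63260 in control and 61270 to 81700 in treated animals of the first hour, a log2 ratio of 0.21, with 0.05 and -0.05 later, and of 0.27, 0.13 and -0.01 without *S100b*. The meninges sum, led by *Dcn*, had log2 ratios of -0.29, -0.32 and -0.18, and the choroid plexus sum, led by *Enpp2*, of -0.22, -0.28 and -0.17, with the groups overlapping in each. Without *Dcn* the meninges had -0.13, -0.29 and -0.17, and without *Enpp2* the choroid plexus had 0.00, -0.06 and 0.10, so that its lower sum came from this gene. The log2 ratios of the sums were 0.05, 0.12 and 0.07 for neurons (*Snap25*), 0.04, 0.10 and 0.04 for microglia (*Itgam*; -0.09, -0.10 and -0.07 without it) and -0.02, -0.08 and -0.01 for pericytes and smooth muscle (*Acta2*). The astrocyte sum was thus highest relative to control in the first hour, as were the *Xdh* and *Fmo2* ratios, and the part of this in the values of *Xdh*, *Fmo2* and *Lao1* was not tested.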

How the data were processed

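RNA of 48 hippocampi, 24 of control and 24 of corticosterone-treated mice, was measured on 24 Agilent arrays with 62976 spots each. The authors scanned the arrays and deposited, for each spot, the intensity of both channels, of the local background in each, and a processed intensity, all made with Agilent Feature Extraction 10.7.3.1. The authors also deposited a table of log2 ratios of Cy5 over Cy3, which lay closest to values normalized by loess alone (the absolute differences had a median of 0.00119, and of 0.0101 after quantiles were matched too) and had a median per array of 0.0024 to 0.00889.

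Here, median spot and background intensities were corrected by normexp, normalized by loess within arrays, with 3671 control spots and outlier spots at weight 0, and by quantiles between arrays, with limma 3.58.1 in R 4.3.3 (statmod 1.5.0 and jsonlite 2.0.0, with tables read by the data.table package, version 1.17.8). The copies of 300 probes, 10 each, were averaged, which left 56605 probes, and 77 pairs of probe and array had no value. Tests were limma's separate channel analysis of 6 groups (treatment by hour) in 1 fit, with an intraspot correlation of 0.286, moderated by eBayes (prior degrees of freedom 4.94) and adjusted by Benjamini and Hochberg over all probes, with a threshold of adjusted p under 0.05. The p values come from a fit with an offset of 50, and fold changes, SE and intensities from a fit with an offset of 0. The procedure was tested on simulated data. Median raw spot intensity per array was 82 to 96 in the control channel and 120.5 to 160.5 in the corticosterone channel, with 0 saturated spots, and the 8 arrays per hour set the precision.

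Probes were named by their sequence identifiers: 34566 belonged to a single gene and 22039 did not. The members and lists were chosen with earlier results of these data known. The lists are other flavin oxidases and monooxygenases, flavin and molybdenum cofactor supply, removal of hydrogen peroxide and aldehydes, purine degradation, monoamine metabolism and transport, D-amino acid metabolism, known glucocorticoid targets, and markers of 8 cell types. Of each list, the text names genes with a mean intensity of 50 or more that were past the threshold in a corticosterone comparison, at most the 4 with the largest fold change, and the first 2 of the list, except that some genes are not reported here; neighbouring genes, *Acox3*, *Kcne2* and the relations between members were chosen after their values were seen. Relations, promoters and figures were computed with Python 3.11.15, numpy 2.4.6, scipy 1.17.1 and matplotlib 3.10.9. The alternatives were other offsets, no background correction, median centring, Aquantile normalization, processed signals, filters on dim probes, a test on log ratios, separate fits for each hour, slide as a block, each slide left out, outlier spots kept, the authors' log2 ratios, other probes of a gene, and marker sums without the brightest marker.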

Additional observations from a re-analysis of the deposited data

Results flagged for a closer look

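Of 54 groups of 8 animals, at the brightest probe of each of the 9 genes, 5 held an animal far from the others by Dixon's rule. The rule was applied to intensities that were not log-transformed. Chance alone flags about 1 in 20 groups where values are normally distributed, and whether these intensities are was not tested. The 5 flagged groups were *Aox1* in control animals of the first hour (436.2, next 340.3, on slide 3), *Fmo1* in control animals of the ninth hour (692.3, next 507.2, on slide 2), *Fmo2* in treated animals of the first hour (217.5, next 127.5, on slide 3), and *Fmo5* in treated animals of the first hour (216.8, next 175.1, on slide 3) and in control animals of the ninth hour (182.2, next 146.8, on slide 1). All 5 were the highest of their group. A difference of the corticosterone effect between the first hour and the ninth was also marked for *Lao1* (-1.18 on the log2 scale) and *Fmo2* (-1.07); as the genes were chosen by such differences, no test supports these values and they are a description. The causes were not tested.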

How the results depend on the processing

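Of 132 counts of member probes recomputed under the alternatives, 111 stayed within 1.5 times the count in the report and 21 did not; no value past the threshold reversed its direction, and the causes were not tested. During the first hour the count of 5 became 3 without slide 1. During the fifth hour the count of 4 became 2 without slide 1 and 2 without slide 3, and 3 with slide as a block, where the brighter *Fmo2* probe was lost. During the ninth hour the count of 2 became 1 with an offset of 0 for p values, with no background correction, with Aquantile normalization, with probes of mean intensity 50 or more (10 member probes tested), with probes well above background on 8 or more arrays (12 tested), with the limma test on log ratios, with a separate fit for each hour, without slide 2 and with the authors' log2 ratios, and 0 without slide 1 and without slide 3; the probe left was that of *Lao1*, except with no background correction, where it was the dim *Fmo5* probe. Between the first and the last of these hours, for the change of the corticosterone effect, the count of 2 became 1 with an offset of 0 for p values, with processed signals (*Xdh*), without slide 1 (*Xdh*) and without slide 2, and 0 without slide 3. It became 3, with *Xdh* added, with slide as a block, median centring, Aquantile normalization, either filter on dim probes, the test on log ratios and the authors' log2 ratios. For the change from the fifth to the ninth hour, the count of 0 became 1 with probes of mean intensity 50 or more and without slide 2, *Lao1* in both.

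Among all probes, the counts past the threshold moved by more than 1.5 times as follows: first hour, 9925 to 6553, 4521 and 5306 without slides 1, 2 and 3; the fifth hour, 10271 to 6833 with separate fits and to 6017 and 4104 without slides 1 and 3; ninth hour, 7867 to 1799, 4716 and 4922 without slides 1, 2 and 3. In control animals, the 3 of the fifth against the first hour became 1 with offset 0, 10 with processed signals, 1 without slide 1 and 0 without slide 3, the 292 of the ninth against the first became 5 without slide 1 and 133 without slide 3, and the 18 of the ninth against the fifth became 11 with offset 0, 11 with Aquantile normalization and 0, 3 and 2 without slides 1, 2 and 3. The change of the effect had 22, 469 and 46 probes: the 22 (first to the fifth hour) became 47 at intensity 50 or more and 7 without slide 3, the 469 (first to ninth) 125, 261 and 181 without slides 1, 2 and 3, and the 46 (the fifth to the ninth) 95 at intensity 50 or more, 72 with probes well above background, 0 without slide 1 and 6 without slide 3.

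*Lao1* stayed higher in treated animals at each hour under all 16 settings, *Xdh* and *Fmo2* during the first (1.07 to 1.81 and 0.64 to 1.59) and the fifth hour (0.46 to 1.34 and 0.27 to 0.89), and *Maoa* stayed lower at each hour. Values near 0 changed sign when a slide was left out, such as those of *Aox1* (0.06 to -0.05 in the first hour) and *Fmo2* (0.08 to -0.08 in the ninth). Of 24 marker sums, 11 moved by more than the SD without the brightest marker, and several changed sign, among them those of microglia at each hour and of choroid plexus in the ninth. Signal near background limits *Lao1*, *Dao* and the dim probes of *Xdh*, *Fmo1*, *Fmo2* and *Fmo5*.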
